A study of Mus musculus with 2 samples.

Results

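The Kit, interleukin-3 (IL-3) and granulocyte-macrophage colony-stimulating factor (GM-CSF) receptor system was described by 10 genes, taken by symbol from the 32285 gene rows of the matrix, and all 10 were found. They were the ligand genes Kitl, Il3 and Csf1 and the receptor genes Kit, Il3ra, Csf2ra, Csf2rb, Csf2rb2, Csf1r and Flt3. Single-cell RNA sequencing was performed on live CD45+ Lin- ST2+ cells sorted from wild-type mouse fetal lungs on gestation day 18, and ST2 is the IL-33 receptor. Their mothers, 9 weeks old, had drunk the synthetic glucocorticoid dexamethasone (DEX) at 1.3 µg/ml, or only its vehicle phosphate-buffered saline (PBS), since gestation day 12. Fetuses were pooled by litter and each pool carried its own hashtag antibody: DEX-1 held 8 fetuses, DEX-2 held 9, PBS-1 held 5 and PBS-2 held 8. The litter was therefore the replicate, with 2 per treatment, and the effect of single fetuses or of their sex was not separable. P-values given here measure only the spread between these litters.

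Kitl encodes stem cell factor, the ligand of the receptor tyrosine kinase KIT, on which mast cells depend for survival and growth. IL-3 and GM-CSF each bind a private alpha chain, encoded by Il3ra and Csf2ra, which then pairs with the common beta chain encoded by Csf2rb. IL-5 also signals through that beta chain, and the mouse has an additional beta chain, encoded by Csf2rb2, that serves IL-3 alone. Csf1 encodes macrophage colony-stimulating factor, whose receptor CSF1R marks monocytes and macrophages, and FLT3 is a related kinase of early progenitors.

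In GRCm38 (GENCODE M21) Kitl lies at chr10:100015630-100100416 (+), Kit at chr5:75574916-75656722 (+), Il3 at chr11:54265303-54267277 (-), Il3ra at chr14:14346275-14356011 (+), Csf2ra at chr19:61223957-61228429 (-), Csf2rb at chr15:78325752-78353847 (+), Csf2rb2 at chr15:78282507-78305721 (-), Csf1 at chr3:107741048-107760469 (-) and Flt3 at chr5:147330741-147400489 (-). Csf2rb and Csf2rb2 are neighbours on opposite strands, with 20030 bases between them. Their coding sequences, 2691 and 2637 bases long, were identical at 2505 of 2631 aligned bases (95.2%), and the longest identical run was 242 bases. The start of both coding sequences is shown first, because it shows how little separates the pair, and capitals mark the 3 bases that differ in these 90.
Csf2rb: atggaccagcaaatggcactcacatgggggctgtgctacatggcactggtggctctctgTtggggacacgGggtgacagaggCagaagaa
Csf2rb2: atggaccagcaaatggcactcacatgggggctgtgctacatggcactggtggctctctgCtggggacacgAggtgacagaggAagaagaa
The most different stretch of 90 coding bases, from base 311 of Csf2rb2, held 16 differences, again in capitals.
Csf2rb: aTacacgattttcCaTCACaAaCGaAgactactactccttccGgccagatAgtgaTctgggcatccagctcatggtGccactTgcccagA
Csf2rb2: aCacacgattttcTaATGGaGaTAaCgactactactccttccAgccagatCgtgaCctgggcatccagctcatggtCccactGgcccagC
A read from an identical stretch cannot be assigned to either gene. The kit reads from the 5′ end of transcripts, where the first 90 bases of the annotated transcripts were 64.6% identical where they aligned, with 393 bases before the start codon in Csf2rb and 293 in Csf2rb2. How many reads the genes shared was not tested, so the split of counts between them is uncertain.

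After filtering, 7268 cells carried 1 hashtag, between 1737 and 1890 per litter, with 18665955 to 23660294 unique molecular identifiers (UMIs) per litter. Cells were clustered without the 10 genes or the pathway genes below, and clusters were named from other markers. ILC2-like (2089 cells), mast-like (2302), basophil-like (477), epithelial-like (412), endothelial-like (281), B-like (199) and mesenchymal-like (174) cells were named. Epithelial, endothelial and mesenchymal cells lie outside a CD45+ gate. Clusters without a name are called by their leading genes: Gzmb and Scin (436 cells), Ager and Car4 (309), Prtn3 and Elane (206), Ear2 and Ctss (189), and S100a8 and S100a9 (79). No cluster could be named macrophage-like. The Ear2 and Ctss cluster had 6 of 10 macrophage or monocyte markers in at least 25% of its cells, with C1qa and C1qb at 0. The S100a8 and S100a9 cluster had all 10, but its neutrophil markers summed to 20405 to 26995 UMIs per 1000000 UMIs (CPM) in each litter and DEX-1 gave it 12 cells. Both were described without a test. Levels below are in CPM of the same cells, given by litter, always in the order DEX-1, DEX-2, PBS-1, PBS-2, and as mean ± SD of the 4 litters. They are compared between cells within a gene, not between genes.

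**Figure D1:**
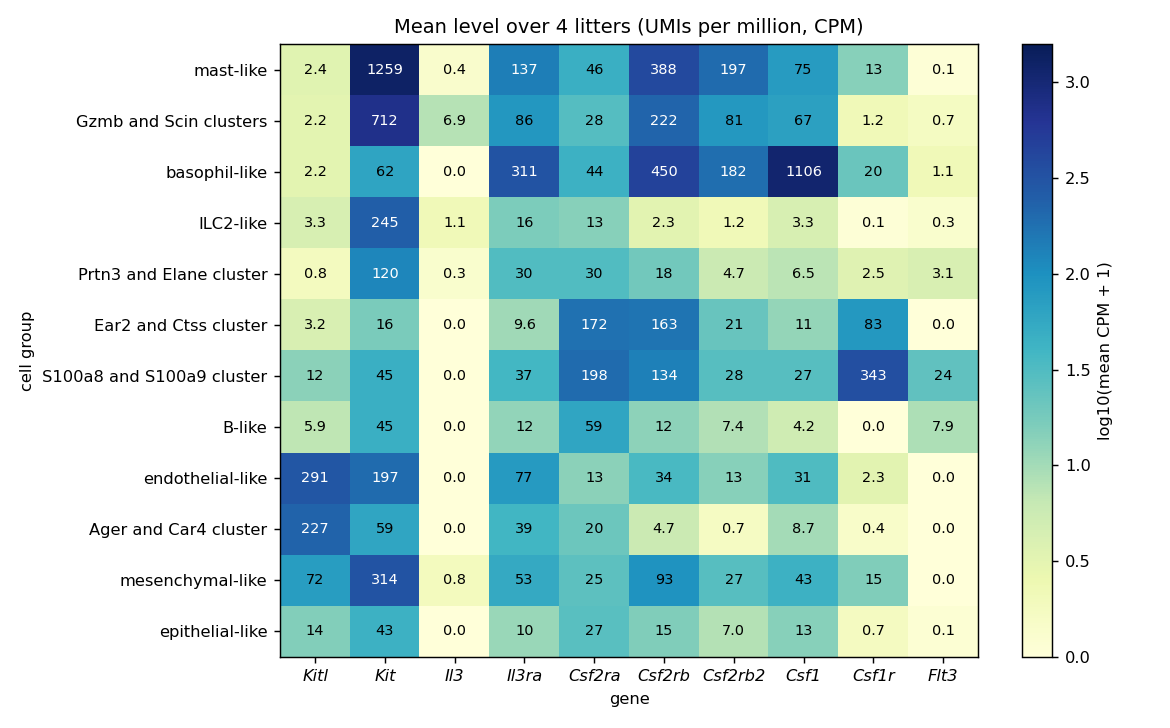
Mean level over 4 litters, in CPM, of the 10 genes (columns) in 12 groups of cells (rows). Kit was highest in mast-like cells at 1259, Csf1 in basophil-like cells at 1106 and Kitl in endothelial-like cells at 291.

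Kitl was found mainly in structural cells. Its level in endothelial-like cells was 237, 356, 370 and 201 CPM (291 ± 84.5). The Ager and Car4 cluster, named by genes known from alveolar type 1 cells and lung capillaries, gave 172, 292, 194 and 250 CPM in the same litters (227 ± 54.1). These ranges overlapped, and both lay above the mesenchymal-like cells, at 53.1, 86.4, 105 and 44.4 CPM (72.1 ± 28.2). Epithelial-like cells had 14.3 ± 2.92 CPM and ILC2-like, mast-like and basophil-like cells had 2.18 to 3.33 CPM on average. Of 4473 Kitl UMIs in all, 59.8% came from the Ager and Car4 cluster, whose median cell held 34627 UMIs, and 25.6% from endothelial-like cells. That cluster had all 9 epithelial and all 7 endothelial markers in at least 25% of its cells. Which of these cell types its Kitl came from was not tested. In cells thinned to 2000 UMIs, so that depth did not set the share, a Kitl UMI was found in 40.6% of endothelial-like cells and 32.0% of the Ager and Car4 cluster, against 1.08% of the B-like cells, a type without stem cell factor. The unthinned shares were 76.5%, 94.5% and 2.01%. Within the endothelial-like cells the larger cluster had 321 CPM and the smaller, led by the arterial genes Cxcl12 and Gja4, 110 CPM.

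**Figure D2:**
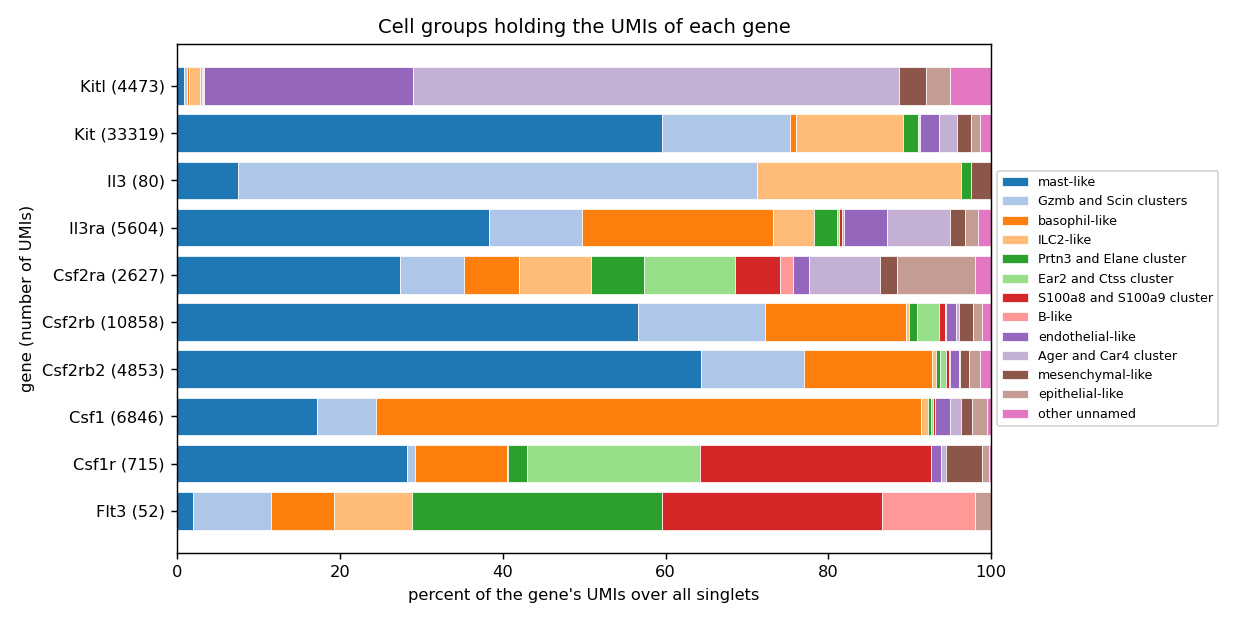
Percent of each gene's UMIs that came from each group of cells, over all litters. The Ager and Car4 cluster, with both epithelial and endothelial markers, held 59.8% of Kitl UMIs and basophil-like cells 67.0% of Csf1 UMIs. Group sizes and depths enter these shares.

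Csf1 was highest in basophil-like cells. They had 1376, 1212, 1058 and 779 CPM (1106 ± 254). Mast-like cells followed with 87.5, 60.9, 92.3 and 61.2 CPM (75.5 ± 16.8), so every litter's basophil-like level was above every mast-like level. Those 477 basophil-like cells carried 67.0% of the 6846 Csf1 UMIs. A Csf1 UMI was present in 76.2% of thinned basophil-like cells, 8.51% of mast-like and 1.08% of B-like cells (95.6% of basophil-like cells unthinned). The larger basophil-like cluster had 1241 ± 250 CPM and the smaller 575 ± 215. ILC2-like cells held 57 Csf1 UMIs over 2089 cells.

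Il3 was nearly absent, with 80 UMIs in the whole set. The Gzmb and Scin clusters gave 51 of them, at 6.82, 6.36, 6.76 and 7.55 CPM by litter, from 21 of 436 cells. In DEX-1 a single cell gave 8 of the 10 UMIs there. ILC2-like cells gave 20 UMIs, mast-like cells 6 and basophil-like cells 0.

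Kit, the mast cell growth factor receptor, was highest in mast-like cells. Their level was 1194, 1196, 1249 and 1396 CPM (1259 ± 95.1). The Gzmb and Scin clusters, which also carried mast cell markers at 16404 to 21367 CPM summed, had 734, 625, 630 and 859 CPM (712 ± 110), below every mast-like litter. In at least 25% of their cells they had 5 of 6 basophil markers and 4 of 8 mast cell markers. Mast-like cells had 4 of 6 basophil markers and 6 of 8 mast cell markers at that share. ILC2-like cells had 234, 266, 208 and 272 CPM (245 ± 29.9) and endothelial-like cells 207, 191, 139 and 251 CPM (197 ± 46.2), ranges that overlapped. Mesenchymal-like cells were listed between them and the Gzmb and Scin clusters at 206, 253, 292 and 505 CPM (314 ± 132). The Prtn3 and Elane cluster had 120 ± 12.5 CPM and basophil-like cells 61.8 ± 25.9 CPM. In the former, 2 of 8 mast cell markers, 1 of 8 neutrophil markers and 1 of 6 erythroid markers reached 25% of cells. So did 1 of 6 eosinophil, 1 of 8 B cell and 1 of 9 epithelial markers, and it was given no cell type.

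UMIs of Cpa3, an abundant mast cell protease gene, were found in every group, so Kit was set beside Cpa3. Mast-like cells held 13.4 Kit UMIs per 100 Cpa3 UMIs. Mesenchymal-like cells were close to that at 16.2, epithelial-like cells had 20.5 and endothelial-like cells 24.8 over all litters (37.7, 18.7, 212 and 16.0 by litter), whereas the ratio was 158 in the Prtn3 and Elane cluster, 234 in the Ager and Car4 cluster and 395 in ILC2-like cells. Taking the mast-like ratio off each litter left 204 to 262 Kit CPM in ILC2-like cells, 30.2 to 133 in endothelial-like cells and 18.6 to 85.6 in mesenchymal-like cells. The same subtraction gave -102 to 88.6 CPM in the Gzmb and Scin clusters and -148 to -103 in basophil-like cells, which held 4.22 Kit UMIs per 100 Cpa3 UMIs and mast markers at 3585 to 5077 CPM summed, so it took off more Kit than these cells had. Mast markers summed to 155 to 333 CPM in ILC2-like, 525 to 9086 in endothelial-like and 6670 to 14186 in mesenchymal-like cells. Among ILC2-like, endothelial-like and mesenchymal-like cells, those without any Cpa3 UMI gave the same order. It did not hold for the Gzmb and Scin clusters, where 17 cells without Cpa3 had 549 Kit CPM. Such cells had 110 CPM in the Prtn3 and Elane cluster, 60.2 in the Ager and Car4 cluster and 39.3 in basophil-like cells. Of 1783 such ILC2-like cells 76.1% had a Kit UMI, at 243 CPM against 247 in all ILC2-like cells pooled. Of 220 endothelial-like cells 64.1% had one, at 132 CPM against 195 in all. Of 102 mesenchymal-like cells 22.5% had one, at 56.3 CPM against 292 in all, and of 189 B-like cells 2.65%. Kit in ILC2-like cells was thus as large without Cpa3-positive cells, and in mesenchymal-like cells it was not. Removing the cells with the highest doublet scores took 48 of 281 endothelial-like cells, which left Kit at 151, 118, 134 and 155 CPM and Kitl at 266, 389, 392.5 and 241 CPM. The same removal took 51 of 174 mesenchymal-like cells but 15 of 2089 ILC2-like cells, where Kit stayed between 209 and 268 CPM.

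**Figure D3:**
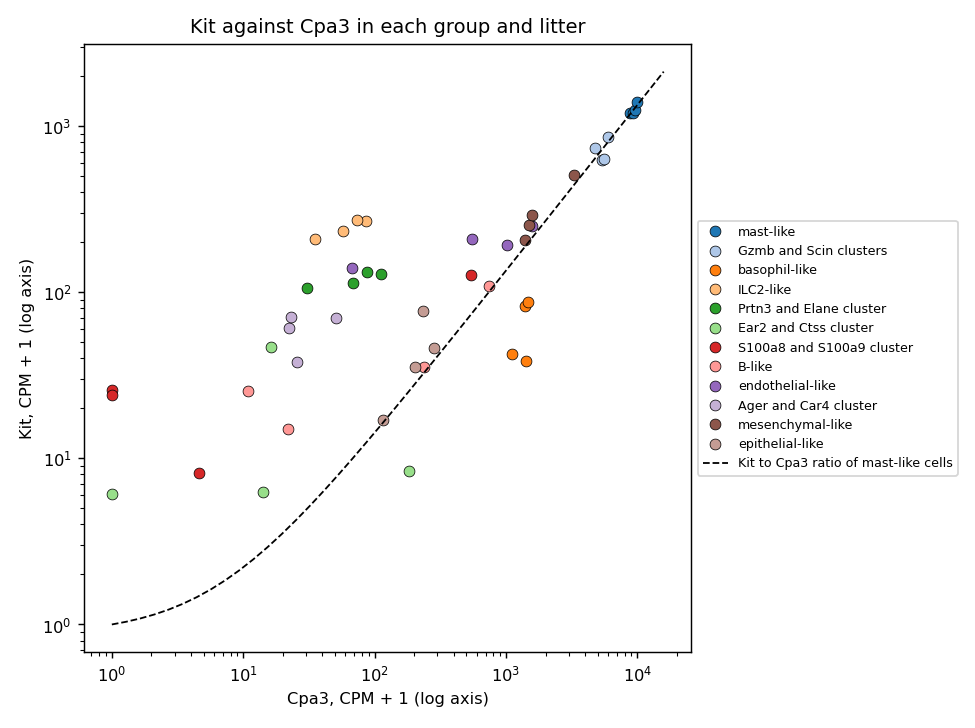
Kit against Cpa3 level, both in CPM plus 1 on log axes, one point per group and litter; the dashed line is the mast-like ratio of 13.4 Kit UMIs per 100 Cpa3 UMIs. ILC2-like points lie far above the line (395 per 100) and mesenchymal-like points close to it (16.2 per 100).

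Shares of cells gave the same picture at equal depth. A Kit UMI was found in 83.9% of mast-like cells thinned to 2000 UMIs, 66.4% of the Gzmb and Scin clusters, 40.5% of ILC2-like and 29.2% of endothelial-like cells, against 4.32% of B-like cells (median 3528 UMIs). Without thinning these were 92.0% for mast-like, 76.8% for ILC2-like, 68.3% for endothelial-like and 4.52% for B-like cells. Kit also varied inside a class. Among mast-like clusters it was 1567 ± 135 CPM in the one led by H19, Mcpt2 and Mcpt1, 1136 ± 147 in the one led by Mcpt4 and Slc6a4, and 693 ± 90.5 in the one led by Fabp2 and Mrgprb2. Among ILC2-like clusters it was 330 ± 45.1 in the one led by Calca, 211 ± 38.1 in the one led by Gzma and Ccl5 and 193 ± 28.0 in the cycling one. A cluster led by Tox had 1139 ± 428 CPM. It held only 28 of all barcodes clustered, singlets or not, with a median of 2417 UMIs. Its level in each litter thus rests on few cells and few UMIs.

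Il3ra, the IL-3 alpha chain, was highest in basophil-like cells, at 301.2, 349, 355 and 240 CPM (311 ± 53.4). Mast-like cells had 142, 127, 144 and 133 CPM (137 ± 7.70), below every basophil-like litter and above the Gzmb and Scin clusters at 85.6 ± 8.10 CPM. Endothelial-like cells had 76.7 ± 8.08 CPM, which overlapped with the latter, at 9.75 Il3ra UMIs per 100 Cpa3 UMIs against 1.45 in mast-like cells. ILC2-like cells had 15.8 ± 1.98 CPM.

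Both beta chains were shared by basophil-like and mast-like cells. Csf2rb was 478, 490, 488 and 347 CPM in basophil-like cells (450 ± 69.4) and 442, 457, 334 and 317 CPM in mast-like cells (388 ± 72.3). Csf2rb2 was 180, 198, 211 and 140 CPM in basophil-like cells (182 ± 31.0) and 197, 242, 181 and 167 CPM in mast-like cells (197 ± 32.4). The litter ranges of the 2 classes overlapped for both genes. ILC2-like cells held 39 Csf2rb and 21 Csf2rb2 UMIs in all, from 2089 cells.

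Csf2ra, the GM-CSF alpha chain, was highest in 2 unnamed clusters with macrophage or monocyte markers. These carried other markers too: neutrophil markers at 20405 to 26995 CPM summed in the S100a8 and S100a9 cluster, and eosinophil markers at 406 to 592 in the Ear2 and Ctss cluster. The S100a8 and S100a9 cluster had 86.3, 147, 286 and 274 CPM (198 ± 97.6) and the Ear2 and Ctss cluster 210, 180, 128 and 172 CPM (172 ± 33.8), which overlapped. B-like, mast-like and basophil-like cells had 59.1 ± 16.7, 45.7 ± 4.28 and 43.5 ± 5.38 CPM, and ILC2-like cells 13.2 ± 0.52. Csf2rb in the Ear2 and Ctss cluster was 163 ± 6.20 CPM, at 329 Csf2rb UMIs per 100 Cpa3 UMIs, whereas Csf2rb2 was 20.8 ± 3.51 CPM there.

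Csf1r (chr18:61100598-61132149, +), the receptor for the Csf1 product, was 481, 410, 173 and 306 CPM in the S100a8 and S100a9 cluster (343 ± 134) and 71.6, 82.2, 83.5 and 94.7 CPM in the Ear2 and Ctss cluster (83.0 ± 9.47). Basophil-like cells had 20.2 ± 9.94 CPM. Mast-like cells had 9.29, 8.93, 27.7 and 7.65 CPM. The high litter there, PBS-1, had 96 UMIs spread over 62 of 525 cells, with at most 6 in one cell. Flt3 had 52 UMIs in all: 16 came from the Prtn3 and Elane cluster, 14 from the S100a8 and S100a9 cluster and 6 from B-like cells.

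Receptor chains were also counted in the same cell, without thinning. Kit and Csf2rb UMIs were both found in 68.8% of mast-like cells (exact binomial 95% interval 66.8 to 70.7%), 82.3% of the Gzmb and Scin clusters, 23.3% of basophil-like and 1.20% of ILC2-like cells. Il3ra with at least 1 beta chain was found in 82.4% of basophil-like, 61.2% of Gzmb and Scin, 45.5% of mast-like and 0.287% of ILC2-like cells. Csf2ra with Csf2rb was found in 46.0% of the Ear2 and Ctss cluster, 43.0% of the S100a8 and S100a9 cluster and 20.0% of mast-like cells. Csf1 and Csf1r were both found in 13.4% of basophil-like cells. These intervals cover counting error only.

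The classes were compared in edgeR with the litter as a block. Of the 6 genes that also passed the filter on low counts in ILC2-like cells alone, 5 were higher in mast-like than in ILC2-like cells, where 70.5% of all genes were called and 35.4% were higher. The log2 difference was 2.50 ± 0.07 (SE) for Kit, 3.24 ± 0.09 for Il3ra, 7.58 ± 0.13 for Csf2rb, 4.67 ± 0.16 for Csf1 and 1.92 ± 0.11 for Csf2ra, and Kitl was not called (-0.30 ± 0.36). Csf2rb2 and Csf1r passed the filter only through the class in which they were high, so they are given as UMIs: 3121 and 202 in mast-like, 766 and 81 in basophil-like, and 21 and 1 in ILC2-like cells. Between basophil-like and mast-like cells 4 of 7 genes were called, where 50.0% of all genes were (23.8% higher and 26.3% lower). Basophil-like cells had higher Csf1 (4.02 ± 0.14), Il3ra (1.33 ± 0.13) and Csf2rb (0.37 ± 0.12, edgeR adjusted p = 0.0148) and lower Kit (-4.29 ± 0.17). The Csf2rb difference was not called without PBS-1 (0.25, edgeR adjusted p = 0.133). Csf2rb2 (0.04 ± 0.12), Csf2ra (0.07 ± 0.15) and Csf1r (0.80 ± 0.33, edgeR adjusted p = 0.0545) did not pass. Against ILC2-like cells, basophil-like cells were called for 5 of the same 6 genes, 4 higher and Kit lower (-1.76 ± 0.17), where 51.7% of all genes were called (25.3% higher and 26.4% lower).

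DEX was then compared with PBS within each class, and no gene of the system passed an edgeR adjusted p of 0.05 in any of the 7 classes tested. In mast-like cells 0 of 8 genes tested were called, where 0.00956% of all genes were. Counts were 0 of 6 in ILC2-like cells (2.87% of all genes), 0 of 7 in basophil-like (0%), 0 of 7 in epithelial-like (0.00934%), 0 of 7 in endothelial-like (0%), 0 of 7 in mesenchymal-like (0%) and 0 of 1 in B-like cells (0.213%). At an unadjusted edgeR p under 0.05 there were 2 genes in mast-like, 2 in epithelial-like, 2 in mesenchymal-like, 1 in ILC2-like, 1 in basophil-like, 0 in endothelial-like and 0 in B-like cells. DESeq2 called 0 of the genes in each class. Il3 and Flt3 passed the filter on low counts in no class. Where DEX and PBS litters are said below not to overlap, 2 litters stand against 2, which cannot pass 0.05 in an exact permutation test. The share of all genes without such overlap was not counted.

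**Figure D4:**
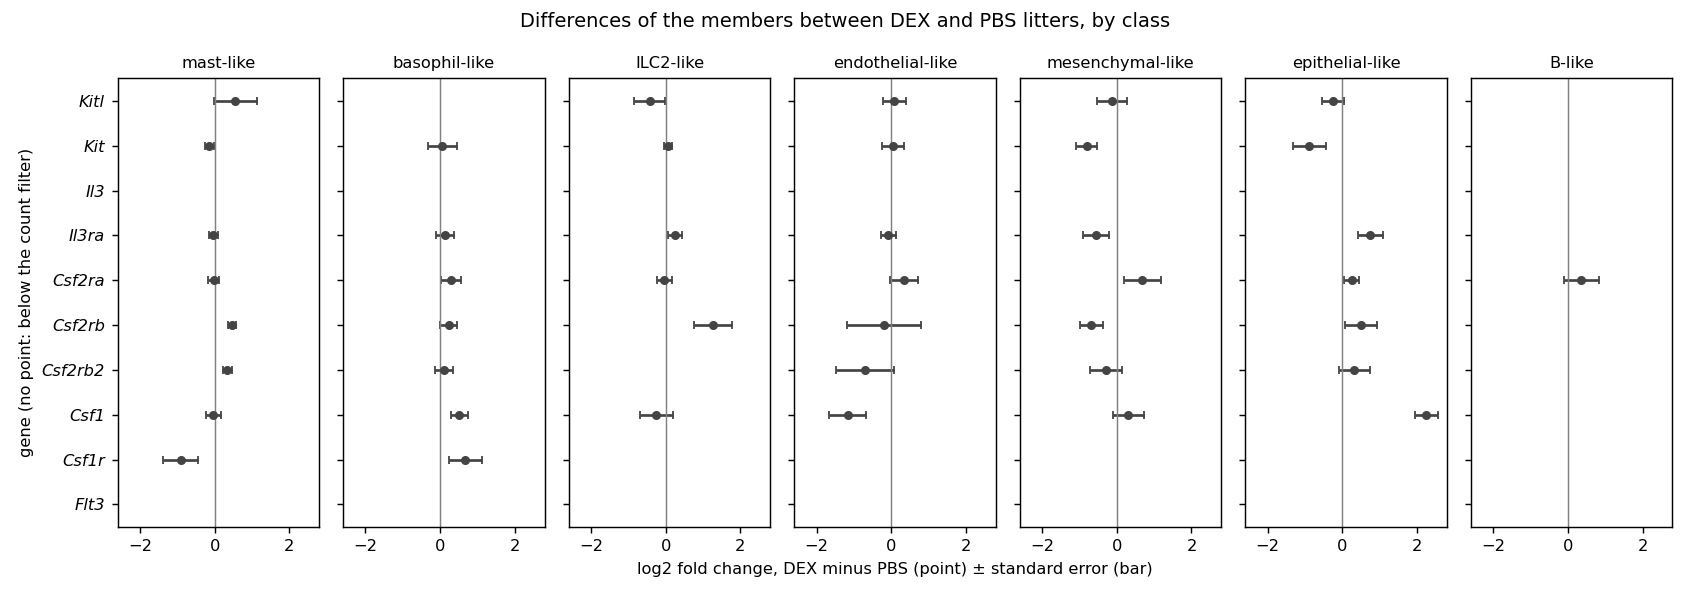
Log2 fold change of DEX against PBS litters (points) with its standard error (bars), by gene and class, from edgeR. None passed the adjusted threshold; Csf2rb in mast-like cells lies at 0.47 ± 0.10 and Csf1 in epithelial-like cells at 2.25 ± 0.30.

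Kit did not pass the test in any class. In mast-like cells the DEX litters, at 1194 and 1196 CPM, lay below the PBS litters, at 1249 and 1396, without overlap, by a log2 difference of -0.14 ± 0.11 (edgeR adjusted p = 0.998). In ILC2-like cells DEX and PBS litters overlapped, at 0.05 ± 0.11 (edgeR adjusted p = 0.915). The difference between these 2 effects was -0.20 ± 0.12 (interaction, edgeR adjusted p = 0.910). In mesenchymal-like cells Kit was 206 and 253 CPM in DEX against 292 and 505 in PBS litters, a log2 difference of -0.80 ± 0.28 (edgeR adjusted p = 0.999, and 0.0056 at -1.16 without PBS-1, where PBS is 1 litter). Cpa3 moved with it, at 1382 and 1490 CPM in DEX and 1582 and 3311 in PBS litters, and its part in the Kit difference was not tested. Kitl in endothelial-like cells differed by 0.08 ± 0.31, with the lowest litter in PBS and the next lowest in DEX.

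Csf2rb was the gene of the system with the smallest unadjusted p in mast-like cells. The DEX litters had 442 and 457 CPM and the PBS litters 334 and 317, so they did not overlap. Its log2 difference was 0.47 ± 0.10 (edgeR adjusted p = 0.349). The adjusted value ranged from 0.0108 to 0.575 over the 11 alternatives and passed in 3, among them without DEX-2 (edgeR adjusted p = 0.0483) and with no filter on low counts (0.0126), while the difference itself stayed between 0.45 and 0.54. With a litter left out, 1 treatment holds a single litter and is assumed to vary like the other, and such fits called 4 to 255 genes in mast-like cells against 1. For Csf2rb, DEX litters were above PBS litters in each mast-like cluster: 390 and 375 against 294 and 232 CPM in the one led by Mcpt4, 529 and 628 against 458 and 470 in the one led by H19, and 227 and 162 against 142 and 150 in the one led by Fabp2. These clusters split the cells of the same litters, so they are not further replicates. Csf2rb2 had 197 and 242 CPM in DEX against 181 and 167 in PBS litters (0.34 ± 0.13, edgeR adjusted p = 0.728). Its litters were apart in the cluster led by Mcpt4 but overlapped in the one led by H19 (210 and 326 against 237 and 250.5 CPM) and in the one led by Fabp2 (127 and 69.3 against 96.6 and 55.2 CPM). In basophil-like cells Csf2rb differed by 0.23 ± 0.23. The difference in effect between mast-like and ILC2-like cells was -0.78 ± 0.41 for Csf2rb (edgeR adjusted p = 0.906), and 0 of 8 genes were called in that interaction, where 0.173% of all genes were.

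**Figure D5:**
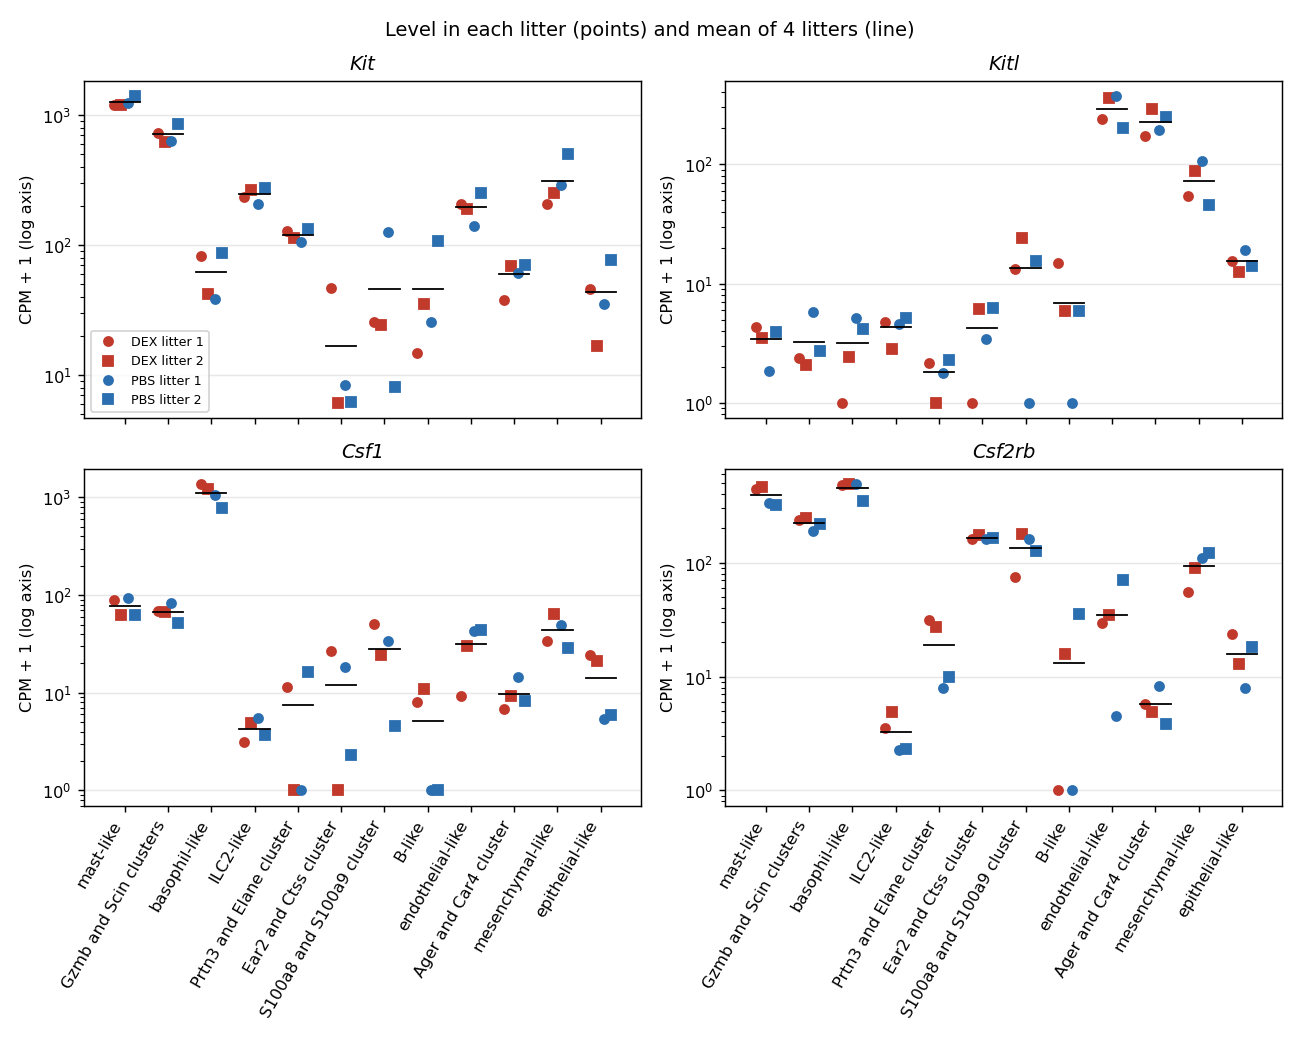
Level of Kit, Kitl, Csf1 and Csf2rb in each litter by group, in CPM plus 1 on a log axis; points are litters and lines the mean of the 4. In mast-like cells Csf2rb was 442 and 457 in DEX and 334 and 317 in PBS litters.

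Csf1 showed the largest log2 difference among the tested values. In epithelial-like cells it was 23.1 and 20.4 CPM in DEX against 4.35 and 4.98 in PBS litters (2.25 ± 0.30, edgeR adjusted p = 0.0726). Leaving out any 1 litter gave an edgeR adjusted p of 4.54e-05 to 0.00149, but these fits rest on a single litter in 1 treatment and called 48 to 149 genes against 1, so they add no support. Few cells carried it: in DEX-1 a single cell held 33 of 43 UMIs (76.7%), and in DEX-2 a single cell held 19 of 59. When the 45 epithelial-like cells with the highest doublet scores were removed, Csf1 was 0 and 2.19 CPM in DEX against 3.74 and 3.51 in PBS litters, and it no longer passed the filter for a test. In basophil-like cells, its main source, the DEX litters had 1376 and 1212 CPM and the PBS litters 1058 and 779 (0.51 ± 0.23, edgeR adjusted p = 1.0), without overlap. Removal of the 10 basophil-like cells with the highest doublet scores left 1383 and 1231 against 1078 and 811 CPM.

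A list of 51 other genes was also followed: 7 other ligands or receptors, 29 signal transducers and 15 feedback or target genes. It was chosen with earlier results of these data known, so the counts called from it are descriptions and no test of the list. Whether the receptors above drive any of them in these cells was not tested. In ILC2-like cells 6 of 46 tested were called, all lower in DEX litters, where 1.51% of all genes were lower, and the median log2 difference of the list was -0.05 against -0.00 for all genes. Of 15 feedback or target genes 4 fell: Bcl2, an inhibitor of apoptosis (110 and 106 CPM in DEX against 185 and 181 in PBS litters, -0.75 ± 0.08), Spry1, an inhibitor of receptor tyrosine kinase signalling (15.8 and 20.1 against 35.2 and 36.2, -1.0 ± 0.16), and Cish and Socs1, inhibitors of cytokine receptor signalling (206 and 186 against 299 and 266, -0.52 ± 0.08, and 91.6 and 84.4 against 132 and 118, -0.50 ± 0.09). Of 28 signal transducers 1 fell, Pik3r1, a regulatory subunit of phosphoinositide 3-kinase (119 and 109 against 164 and 135, -0.38 ± 0.10), and of 3 other ligands or receptors 1, Flt3l, the FLT3 ligand (97.9 and 94.0 against 122 and 136, -0.42 ± 0.09). The edgeR adjusted p was 4.14e-05 for Bcl2, 0.00201 for Spry1, 0.00152 for Cish, 0.00521 for Socs1, 0.0427 for Pik3r1 and 0.0163 for Flt3l. Pik3r1 was not called by DESeq2 (adjusted p = 0.264), with RLE size factors (0.0508), without DEX-2 (0.119), without PBS-1 (0.325) or with high doublet scores removed (0.0638). Flt3l was not called by DESeq2 (adjusted p = 0.155) or without PBS-2 (0.0866). None of the list was called in the other 6 classes, of 20 to 46 genes tested by edgeR, and 5 of 46 had an unadjusted p under 0.05 in mast-like cells. Kit itself, in the same ILC2-like cells, was 234 and 266 CPM in DEX against 208 and 272 in PBS litters.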

How the data were processed

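The authors counted UMIs with Cell Ranger 7 on mm10, per the submitters' processing notes, and the deposited values were raw UMI counts, with 4 hashtag rows beside the genes. Of 10648 barcodes, those with under 200 genes or above 5% mitochondrial UMIs were left out (10409 passed, the limits the study states). HTODemux of Seurat 5.3.0 (quantile 0.99) gave 7268 singlets, 736 doublets and 2405 barcodes without a tag; only singlets were used. RNA and tags came from 1 pair of libraries. One legend in the study names fewer dams than the methods, labels and hashtags; litters follow the hashtags. The authors' cell annotation was not used here. Cells were clustered with scanpy 1.11.5 and leidenalg 0.10.2 (2000 variable genes, 20 components, 15 neighbours, resolution 1.0). A class needed 3 markers in 25% of cells, on average 30% of cells with a marker, and no second type above 60% of the first, or 80% where a marker led the cluster. These limits were chosen with the clusters in view, and the rebuilt names may themselves cause differences from the study. Scrublet's own threshold marked 1 barcode and so did not work; removing the highest 3.38% of scores was an alternative only.

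UMIs were summed per class and litter (at least 20 cells in each litter) and tested with edgeR 4.0.16 (quasi-likelihood F-test, TMM, filterByExpr, two-sided, Benjamini-Hochberg over all genes tested). Standard errors are the log2 fold change over the square root of F. The test was checked on simulated counts with a fixed spread. Of 2-fold changes it called 59% in ILC2-like, 56% in mast-like and 26% in mesenchymal-like sums. Of 4-fold changes it called 92%, 100% and 78%, with 7, 8 and 4 false calls. A gene that was not called may therefore still differ by 2-fold. DESeq2 1.42.0 was an alternative, with RLE scaling, no filter, each litter left out, a replicate block, another hashtag rule, Scrublet and resolution 0.5. Named were the 10 genes, the other ligands with Il5ra, up to 10 called pathway genes per comparison, and for Kit, Csf2rb and Kitl the 5 genes most like each. The genes and lists were chosen with earlier results of these data known. Total UMIs per litter limit precision; a count of 0 allows up to 3 counts.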

Additional observations from a re-analysis of the deposited data

Results flagged for a closer look

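Among 33 values of the system's genes above 50 CPM, each measured in 4 litters, 2 had 1 litter apart from the others, where chance gives about 1 in 20. Csf2ra in B-like cells was 34.3 CPM in PBS-1 against 63.8 to 69.6 in the other litters, on 7 UMIs. Csf2rb in basophil-like cells was 347 CPM in PBS-2 against 478 to 490 in the other litters, on 221 UMIs from 62 cells.

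The DEX and PBS litters lay in opposite orders for Csf2rb in 2 classes, and neither difference was called by edgeR. The ratio of DEX to PBS means was 1.38 in mast-like cells and 0.626 in mesenchymal-like cells, with no overlap of litters in either. The difference between these ratios was not tested. Mesenchymal-like cells held 4.91 Csf2rb UMIs per 100 Cpa3 UMIs against 4.16 in mast-like cells, and their Cpa3 was 1382 and 1490 CPM in DEX against 1582 and 3311 in PBS litters. The part of these mast cell UMIs in the mesenchymal-like ratio was not tested.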

How the results depend on the processing

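Class contrasts of the 10 genes kept their direction and their call for every gene with a called log2 difference, except Csf2rb between basophil-like and mast-like cells without PBS-1. In that contrast Csf1r (0.80) was called with RLE, no filter, Scrublet, resolution 0.5 and without PBS-1, and Csf2rb2 at resolution 0.5 (0.48). The litter numbers only name litters: same-numbered litters correlated at -0.212 to 0.116 across classes, so the replicate block is given here once. Genes called between DEX and PBS changed as follows. In ILC2-like cells 306 became 129 with DESeq2, 518 with no filter and 305 to 435 with 1 litter left out. In mast-like cells 1 became 7 with DESeq2, 0 with RLE or with Scrublet scores removed, 158 with no filter, 120 with the replicate block, 2 at resolution 0.5 and 4 to 255 with 1 litter left out. In basophil-like cells 0 became 20 with no filter, 12 with a crossed block chosen after seeing the data, and 0 to 27. In epithelial-like cells 1 became 6 with DESeq2, 0 with no filter or the replicate block, 2 with Scrublet, 112 with the crossed block and 48 to 149. In endothelial-like cells 0 became 2 with the replicate block, 3 with the other hashtag rule and 0 to 153. In mesenchymal-like cells 0 became 66 with no filter, 21 with the replicate block and 39 to 159. In B-like cells 7 became 4 with DESeq2, 91 with no filter, 30 with the replicate block, 2 with the other hashtag rule and 26 to 78. The interaction went from 20 to 13 with DESeq2, 104 with no filter, 2 with no replicate block and 3 to 173.

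Of the 10 genes, calls in mast-like cells went from 0 to 2 with no filter (Csf2rb 0.49, Csf1r -0.89), 1 with the replicate block (Csf2rb, adjusted p = 0.0108) and 0 to 1 with 1 litter left out (Csf2rb without DEX-2, Csf1r at -1.55 without PBS-2). In epithelial-like cells they went to 2 with the crossed block and to 1 to 2 with 1 litter left out (Csf1, and Kit at -1.70 in the fit lacking DEX-1 and -1.33 in that lacking PBS-1), and in mesenchymal-like cells to 0 to 1 (Kit without PBS-1). Signs reversed for Kit in ILC2-like cells (-0.05 without DEX-2, -0.12 without PBS-1, up to 0.28), Il3ra in basophil-like cells (-0.14 without PBS-2, up to 0.53), Kitl in endothelial-like cells (-0.26 without DEX-2, -0.27 without PBS-2, up to 0.56), Csf2rb2 between basophil-like and mast-like cells (-0.089 without PBS-1, up to 0.14, and -0.011 with the other hashtag rule) and Kitl between basophil-like and ILC2-like cells (0.22 without DEX-1, down to -0.25); none of these was called as reported or where its sign reversed. Shares of cells without thinning were 92.0% for Kit in mast-like, 76.8% in ILC2-like and 68.3% in endothelial-like cells, 76.5% for Kitl in endothelial-like, 95.6% for Csf1, 93.3% for Csf2rb and 83.6% for Il3ra in basophil-like, and 71.2% for Csf2rb in mast-like cells. With thinning, resolution 0.5 gave 80.6% for Kit (83.9% as reported) and 36.2% for Csf2rb (45.5%) in mast-like cells, and the other hashtag rule gave 38.3% for Kit in ILC2-like cells (40.5%). The causes were not tested. Macrophage-like cells, which could not be named, were not run, nor were mesenchymal-like cells with Scrublet scores removed, where PBS-2 kept 16 cells.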

Other observations

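Csf2 and Il5 UMIs came mostly from ILC2-like cells. Csf2, which encodes GM-CSF, was 159, 244, 217 and 331 CPM in ILC2-like cells (238 ± 71.3), which held 80.7% of its 5331 UMIs. Il5, the eosinophil growth factor gene, had 654 UMIs, 96.2% of them in ILC2-like cells, at 20.2, 81.5, 13.2 and 31.8 CPM, so DEX-2 lay highest. Flt3l was 112 ± 19.9 CPM in ILC2-like, 63.1 in basophil-like and 41.8 in mast-like cells. Il5ra, the IL-5 alpha chain, had 312 UMIs, 76.3% of them in mast-like cells at 15.2 ± 1.11 CPM. Il34, a second ligand of CSF1R, was 38.1 ± 4.37 CPM in epithelial-like cells and 25.4 in the Ager and Car4 cluster, which held 47.0% and 40.3% of its UMIs, against 0.666% in ILC2-like cells.

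Across 48 sums of group and litter, on log2(CPM + 1), the genes most like Kit among 8964 genes were Lgals7 (r = 0.870), St6galnac3 (0.863), Eno2 (0.838), Nr3c1, the glucocorticoid receptor (0.83), and Rab27b (0.828). Those most like Csf2rb were Fcgr3 (0.974), Fcer1g (0.964), Emilin2 (0.961), Alox5ap (0.944) and Lilr4b (0.939). Those most like Kitl were Fendrr (0.935), Gm13889 (0.932), Cdc42ep1 (0.932), Mest (0.929) and Piezo2 (0.929). These sums share litters and a library, and the correlations are descriptions.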
